A study of Mus musculus with 20 samples.

Results

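Regulatory T cells (Tregs) given the partial agonist IL-2-REH were compared between 4 hr and 90 min of stimulation, with 3 samples at each time, 6 of the 20 samples of the study. The members were taken by their labels: all Treg samples titled REH at 4 hr, and all titled REH at 1.5 hr. Tregs, which are CD4+ T cells marked by the transcription factor Foxp3, came from spleen and lymph node of B6-Foxp3EGFP mice, whose Foxp3-expressing cells carry GFP. They were enriched with a CD4+ T cell kit and sorted for GFP, and the sample records name the strain as C57BL/6N. The purified cells received 200 nM IL-2-REH ex vivo, and no animal age or number is given. The other groups were unstimulated Tregs (3 samples), Tregs with 200 nM IL-2 for 90 min or 4 hr (3 samples each) and CD8+ T cells, which the study isolated from C57BL/6J mice, under the same 5 conditions (1 sample each). RNA was sequenced, and the values are read counts and RPKM, reads scaled by exon length and by the mapped reads of the library, for 1 transcript of each gene symbol.

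IL-2 holds its receptor chains together so that the kinases JAK1 and JAK3 phosphorylate the transcription factor STAT5, which drives genes for survival, growth and feedback inhibition. Tregs carry the high-affinity receptor with the α chain CD25 (Il2ra) at all times and depend on IL-2 for Foxp3 expression and fitness. A partial agonist such as IL-2-REH binds the receptor but gives a lower maximal signal. Early after stimulation lymphocytes transcribe immediate early genes, many of which encode short-lived messages for transcription factors and for inhibitors of the pathways that induced them.

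The 6 libraries held 42756569 to 52503925 reads on genes at 90 min and 25363732 to 44460557 at 4 hr, so the shallowest was replicate 1 at 4 hr. Reads on genes were 66.89% to 69.75% of mapped reads at 90 min, but 58.15%, 71.46% and 63.33% in replicates 1 to 3 at 4 hr. RPKM divides by all mapped reads, so the RPKM of replicate 1 at 4 hr reads lower than its share of gene reads. The fold changes below come from read counts scaled by TMM. TMM factors rose from 90 min to 4 hr, from 1.037 to 1.168, 0.885 to 1.045 and 0.848 to 1.033 in replicates 1 to 3. In replicates 2 and 3, RPKM at 4 hr relative to 90 min thus reads higher than the scaled counts do. Libraries with the same number went together: their deviations from the group means correlated across genes with r = 0.639, 0.590 and 0.390 for numbers 1 to 3, while genes are not independent replicates. The Y-linked gene Eif2s3y was at 0 RPKM in both IL-2-REH libraries of replicate 2 and at 31.6 to 41.5 RPKM in those of replicates 1 and 3. Treg markers were abundant in every library, with a summed level of 10 markers of 1539 to 1759 RPKM at 90 min and 1274 to 1544 RPKM at 4 hr. Libraries of replicate 3 stood apart in RNA of other blood cells: 9 neutrophil markers summed to 212 and 295 RPKM at 90 min and 4 hr, against 1.22 to 5.75 RPKM in replicates 1 and 2, and 10 erythroid markers to 238 and 280.1 RPKM against 8.24 to 31.04 RPKM. Outside the 6 libraries, the unstimulated library of replicate 1 went against its label, since Ramp3, a receptor chaperone gene, stood at 219 RPKM there and at 2.908 RPKM or less in the other unstimulated libraries. No source used here says whether replicates came from separate animals, but by Eif2s3y the replicates did not all come from 1 animal. The study lists its Foxp3-EGFP mice as female, which the Eif2s3y RNA of replicates 1 and 3 goes against. P-values here measure the spread between samples of the same group. Where the replicate number is a block, they measure the spread left after differences between replicates are taken out. All results that follow on time use the IL-2-REH libraries alone unless they say otherwise.

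The comparison asks how RNA levels moved from 90 min to 4 hr with the partial agonist. The unstimulated samples are titled 0 hr, and no sample was kept without cytokine for 90 min or 4 hr. Time with IL-2-REH and time in culture after sorting thus cannot be told apart in the results that follow. The planned test, edgeR's quasi-likelihood test over all 15 Treg libraries without a term for the replicate, called none of 14992 genes (0%) at an adjusted p-value under 0.05. Unadjusted p-values under 0.05 numbered 2187, 1228 of them lower (8.19%) and 959 higher (6.4%), and the smallest adjusted p-value was 0.197. DESeq2 on the same libraries called 136 lower and 115 higher. With the replicate number as a block and the 6 IL-2-REH libraries alone, referred to here as the paired fit, 515 of 13716 genes (3.75%) were called lower and 341 (2.49%) higher at 4 hr. All statements that a gene fell or rose rest on this paired fit, and no such gene had a planned-test adjusted p-value under 0.05. The block over all 15 Treg libraries called 6 genes, and over 14 of them, without the unstimulated library of replicate 1, it called 1773. Without replicate 1, 2 or 3 the paired fit called 1755, 1082 and 301 genes, and without replicate 3 the higher genes numbered 44. On the RPKM scale, a paired limma fit called 786 genes lower and 1003 higher, so the split between directions depended on the scale. Fewer cells of a type and less RNA per cell cannot be told apart in such bulk samples.

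The genes that fell were the more abundant ones, with a median level of 13.8 RPKM over the 6 libraries, against 3.03 RPKM for those that rose and 5.32 RPKM for all genes tested. Their transcripts were also longer, with a median of 3633 exon bases against 2825 for genes that rose and 2761 for all. Set against the unstimulated library of the same number, the genes that fell lay at a median log2 ratio of 1.42 and 1.18 at 90 min in replicates 2 and 3 and at 0.43 and -0.22 at 4 hr. In replicate 1, whose unstimulated library stood apart, the same medians were -0.44 and -1.26. The genes that rose went the other way in replicates 2 and 3, from -0.91 and -0.90 at 90 min to 0.14 and 0.43 at 4 hr. Their medians in replicate 1 were 0.32 and 1.12, above the unstimulated library at both times. The paired fit used none of the unstimulated libraries, but the same 90 min and 4 hr libraries chose these genes. The order of the times was thus set by the choice, and the ratios to unstimulated cells are description only.

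**Figure D1:**
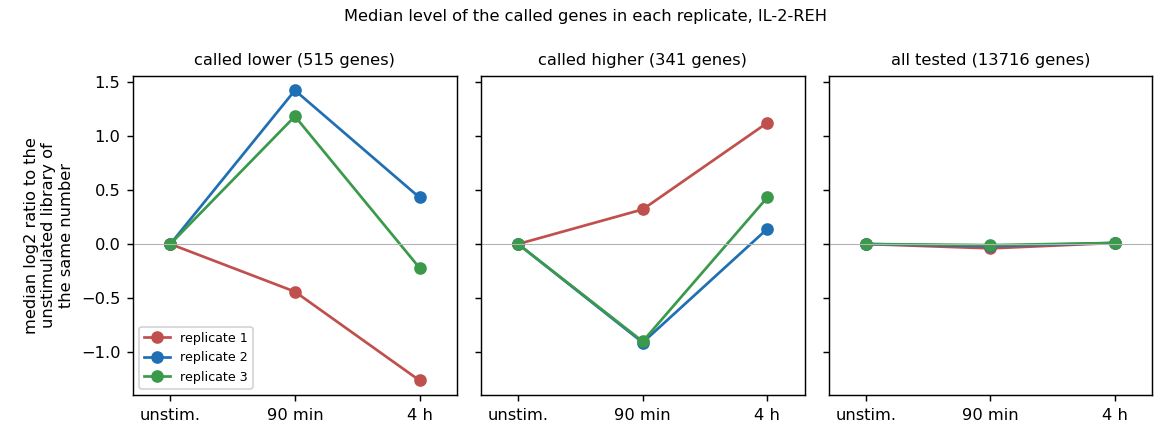
Median log2 ratio (y axis) of the called genes and of all genes tested to the unstimulated library of the same replicate number, at 90 min and 4 hr of IL-2-REH (x axis), 1 line per replicate. The genes called lower, chosen by their difference between these times, lay at 1.42 and 1.18 at 90 min in replicates 2 and 3. Replicate 1 started from an unstimulated library that stood apart and lay at -0.44.

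Of 32 measured immediate early and activation genes, 22 fell and 0 rose in the paired fit, against 3.75% and 2.49% of all genes, with a median log2 fold change of -1.07 against 0.04 over all genes tested. Without replicate 1, 2 or 3, the paired fit called 22, 20 and 18 of the 32 lower. The count over the list in the planned test was 0, with 12 members lower at an unadjusted p-value under 0.05. The list was drawn up with earlier results of these data known, as all lists here. The shares of all genes, 3.75% lower and 2.49% higher, are the background for each list count that follows.

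The orphan nuclear receptors of the NR4A family, rapidly induced by antigen receptor signals, fell. Nr4a3 (NM_015743, GRCm38 chromosome 4 from 48045078 to 48086447) stood at 114, 542 and 427 RPKM at 90 min and at 18.6, 156 and 50.2 RPKM at 4 hr in replicates 1 to 3. The groups overlapped, because replicate 1 was the lowest at both times, but each replicate fell. The log2 fold change was -2.59 (standard error 0.25, adjusted p = 0.0066 from the paired edgeR fit and 0.32 from the planned test). Over the alternatives its log2 fold change lay between -3.52 and -2.06, and its adjusted p between 5.2e-25 and 0.93. Nr4a2 and Nr4a1 fell too, with log2 fold changes of -1.74 and -1.34.

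The EGR zinc finger factors, which respond to MAP kinase and calcium signals, fell too. Egr3 (NM_018781, chromosome 14 from 70077317 to 70082613) stood at 4.94, 36.0 and 27.2 RPKM at 90 min and at 0.810, 12.5 and 3.83 RPKM at 4 hr. Replicate 1 was again the lowest at both times. For Egr3 the log2 fold change was -2.40 (standard error 0.26, adjusted p = 0.0094 from the paired edgeR fit). For Egr2 and Egr1 the log2 fold changes were -1.77 and -1.04.

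Klf4, a Krüppel-like factor that restrains proliferation, showed no overlap between times. It stood at 14.9, 18.7 and 23.9 RPKM at 90 min and at 3.50, 5.597 and 5.69 RPKM at 4 hr. Its log2 fold change was -2.06 (standard error 0.17, adjusted p = 0.0066 from the paired edgeR fit). Groups that did not overlap in this direction were found for 7.36% of all genes tested. Of the AP-1 family, which pairs Fos and Jun proteins, Junb fell from 326, 535 and 401 RPKM to 141, 226 and 170 RPKM, again without overlap. Its log2 fold change was -1.32 (standard error 0.17, adjusted p = 0.017 from the paired edgeR fit). Fosb, Fos, Fosl2 and the stress factor Atf3 fell with log2 fold changes of -1.42, -1.21, -1.10 and -0.91. Cd69, an early activation receptor that retains lymphocytes in tissue, and Rgs1, which dampens chemokine receptor signals, fell with log2 fold changes of -1.11 and -0.98.

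**Figure D2:**
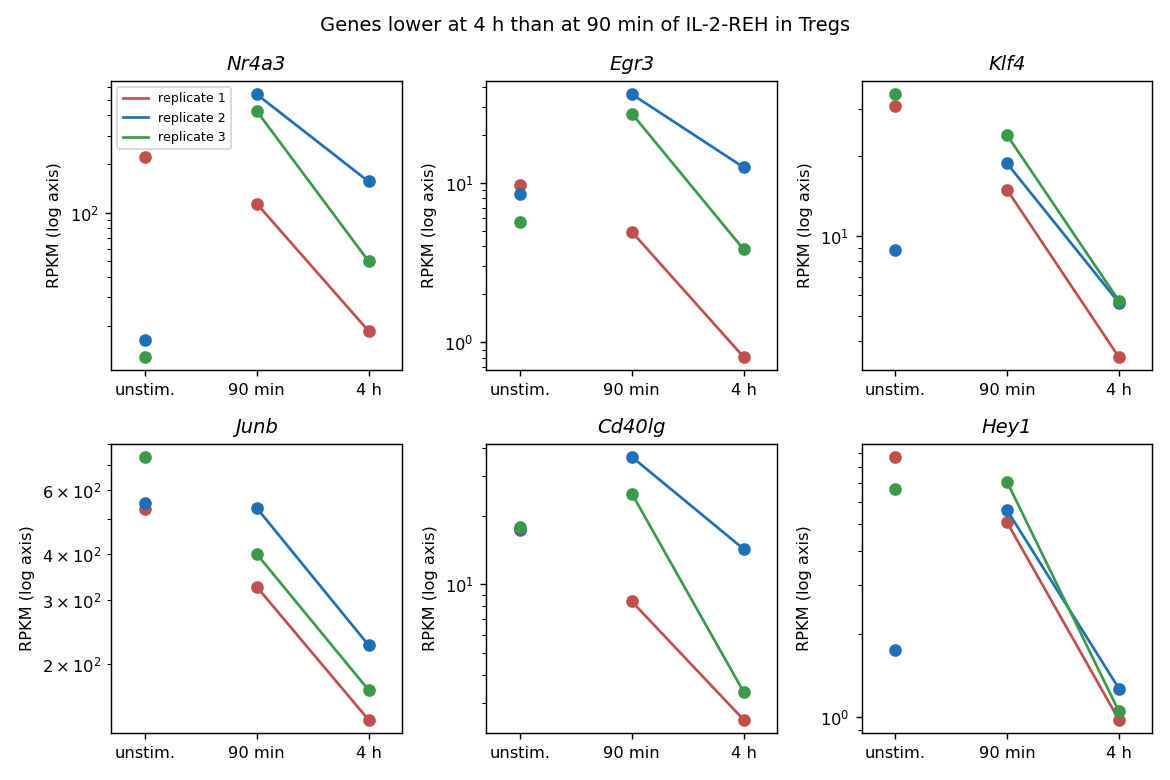
RPKM (log y axis) of Nr4a3, Egr3, Klf4, Junb, Cd40lg and Hey1 in each Treg library, unstimulated and at 90 min and 4 hr of IL-2-REH (x axis), coloured by replicate, with lines joining the times of IL-2-REH. Each of the 3 lines goes down in all 6 panels, and the groups do not overlap for Klf4, Junb and Hey1.

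Several of these genes have promoters with known response elements, and a few are shown with the matches in capitals. The motifs searched were the palindrome bound by STAT factors (TTCNNNGAA), the E-box CACGTG, the cAMP response element TGACGTCA and the AP-1 site TGACTCA with its complement TGAGTCA, in RefSeq promoters of GRCm38.p6 from 250 bases before to 50 after the start. Of 32851 promoters, 8.3% held the palindrome, 7.15% the E-box, 1.79% the cAMP response element and 5.2% an AP-1 site. Promoters were found for 78.2% of the genes tested, 75.7% of those that fell and 79.8% of those that rose, each under the 80% set for a comparison, so none was made. The shares that follow are description only. The cAMP response element was in 405 of 13563 (2.99%), 31 of 520 (5.96%) and 6 of 343 (1.75%) promoters found for these sets, in that order. The palindrome was in 6.99%, 6.73% and 7.87%, the E-box in 9.57%, 11.3% and 8.45%, and an AP-1 site in 3.83%, 4.62% and 4.66%. The 5 promoters below, each the 250 bases before the start and written 5′ to 3′, were chosen after their matches were seen. Dusp1 encodes a MAP kinase phosphatase and Areg the growth factor amphiregulin, and both show the cAMP response element, Dusp1 beside an E-box. Klf4 shows an E-box. Nfkbid, an atypical inhibitor of NF-κB with 3 listed promoters of which 1 is shown, and Socs3, an inhibitor of cytokine receptor signals, show the palindrome.
Dusp1, chr17:26508473-26508722, minus strand: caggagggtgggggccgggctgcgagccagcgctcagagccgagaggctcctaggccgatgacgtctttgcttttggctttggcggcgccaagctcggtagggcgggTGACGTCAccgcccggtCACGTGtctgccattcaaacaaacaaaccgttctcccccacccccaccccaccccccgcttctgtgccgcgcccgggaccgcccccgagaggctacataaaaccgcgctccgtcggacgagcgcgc
Areg, chr5:91139349-91139598, plus strand: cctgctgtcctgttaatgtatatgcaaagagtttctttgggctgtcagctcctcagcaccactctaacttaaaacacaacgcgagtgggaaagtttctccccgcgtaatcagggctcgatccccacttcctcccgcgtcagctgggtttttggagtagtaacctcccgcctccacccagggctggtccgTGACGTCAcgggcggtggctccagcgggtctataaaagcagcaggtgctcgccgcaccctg
Klf4, chr4:55532476-55532725, minus strand: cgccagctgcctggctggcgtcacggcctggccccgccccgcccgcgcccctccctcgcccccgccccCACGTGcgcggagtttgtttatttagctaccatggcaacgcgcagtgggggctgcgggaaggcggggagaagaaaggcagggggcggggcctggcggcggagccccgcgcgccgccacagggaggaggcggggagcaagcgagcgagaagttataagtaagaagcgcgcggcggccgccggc
Nfkbid, chr7:30421481-30421730, plus strand: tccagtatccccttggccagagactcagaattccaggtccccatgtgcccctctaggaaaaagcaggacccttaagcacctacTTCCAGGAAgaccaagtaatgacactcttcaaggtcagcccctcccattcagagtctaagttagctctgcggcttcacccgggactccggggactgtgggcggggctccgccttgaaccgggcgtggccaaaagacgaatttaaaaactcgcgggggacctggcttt
Socs3, chr11:117969367-117969616, minus strand: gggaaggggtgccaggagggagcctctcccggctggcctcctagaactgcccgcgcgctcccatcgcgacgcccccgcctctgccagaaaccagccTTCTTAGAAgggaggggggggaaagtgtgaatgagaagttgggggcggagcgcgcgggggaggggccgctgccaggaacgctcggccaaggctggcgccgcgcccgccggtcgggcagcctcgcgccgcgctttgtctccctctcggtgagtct
A match is a description of these letters, not evidence that a factor was bound.

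Some inhibitors of the pathways that induce immediate early genes were also called. Of 18 MAP kinase phosphatase and Sprouty genes, 8 fell and 0 rose, with a median log2 fold change of -0.85 against 0.04 for all genes. Dusp1, whose promoter holds the cAMP response element shown, went from 101, 144 and 105 RPKM to 38.5, 88.3 and 46.0 RPKM. All 3 libraries at 4 hr were below the lowest at 90 min, and its log2 fold change was -1.18 (standard error 0.17, adjusted p = 0.021 from the paired edgeR fit). Dusp4, Dusp10, Dusp5 and Spry1, an inhibitor of Ras signalling, fell with log2 fold changes of -1.36, -1.18, -1.16 and -1.52.

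Of 17 NF-κB subunits and inhibitors, 4 fell and 0 rose (median log2 fold change -0.33). Tnfaip3, which encodes the deubiquitinase A20, stood at 300.2, 618 and 599 RPKM at 90 min and at 128, 330.1 and 168 RPKM at 4 hr. For Tnfaip3 the log2 fold change was -1.41 (standard error 0.22, adjusted p = 0.022 from the paired edgeR fit). The subunit gene Rel and the inhibitor genes Nfkbid and Nfkbiz fell with log2 fold changes of -1.15, -1.08 and -0.88.

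Of 19 regulators of mRNA decay, which shorten the life of cytokine messages, 8 fell and 0 rose, with a median of -0.68. Zc3h12c, a relative of the endonuclease Regnase-1, stood at 2.74, 5.09 and 4.71 RPKM at 90 min and at 0.815, 2.57 and 0.727 RPKM at 4 hr. For Zc3h12c the log2 fold change was -1.89 (standard error 0.30, adjusted p = 0.024 from the paired edgeR fit). The gene of Regnase-1 itself, Zc3h12a, fell as did Tob2 and Zfp36l1, with log2 fold changes of -0.84, -1.07 and -0.91. Without replicate 3, 5 of the 19 were called lower.

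**Figure D3:**
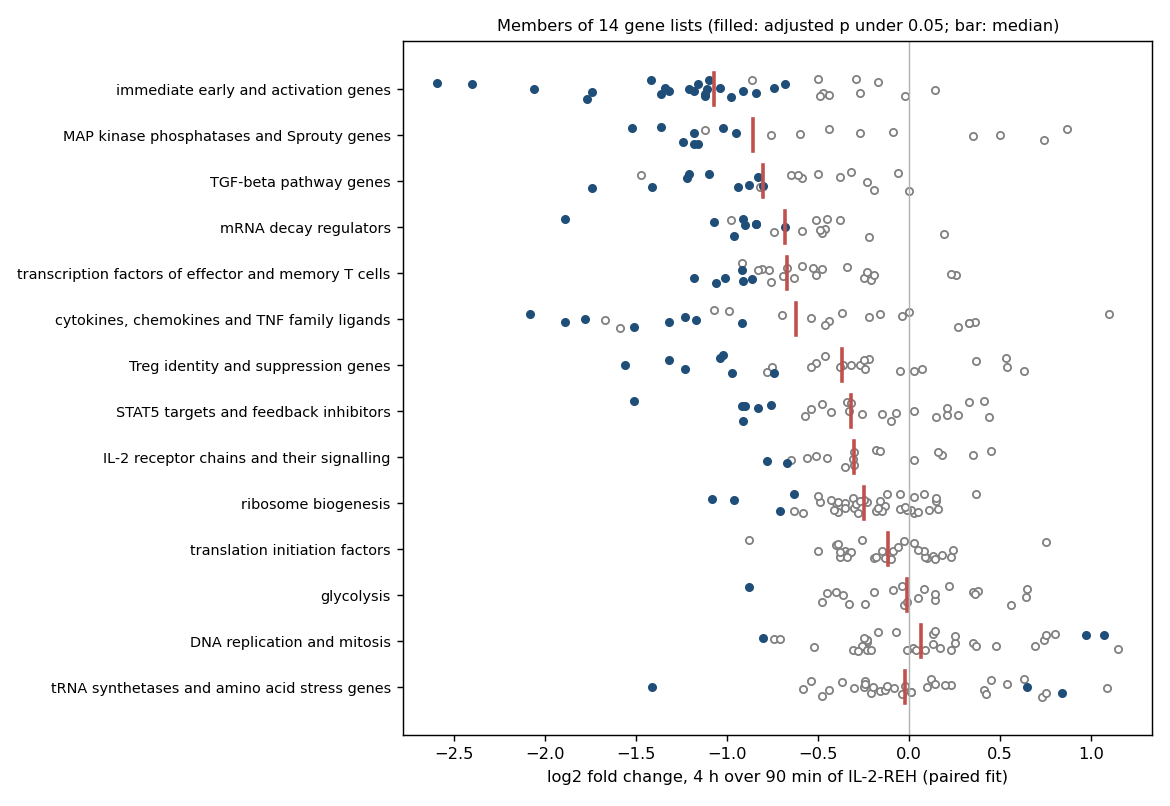
Log2 fold change between 4 hr and 90 min of IL-2-REH in the paired fit (x axis) for the measured members of 14 gene lists (y axis), filled where the adjusted p-value was under 0.05, with a bar at each list's median. The medians run from -1.07 for immediate early and activation genes to 0.06 for DNA replication and mitosis.

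Of 17 genes for IL-2 receptor chains and their signalling, 2 fell and 0 rose, with a median log2 fold change of -0.30, and 0 were called without replicate 2. Il2ra, the α chain, stood at 120.5, 113 and 104 RPKM at 90 min and at 133, 151 and 90 RPKM at 4 hr. The times overlapped, and the log2 fold change was 0.03 (95% confidence interval -0.39 to 0.45, adjusted p = 0.93 from the paired edgeR fit). The signalling chains Il2rb and Il2rg gave log2 fold changes of -0.30 and -0.35 (adjusted p = 0.29 and 0.18 from the same fit). The members that fell were Stat3 (log2 fold change -0.67) and Pik3r1, which encodes a regulatory subunit of PI3 kinase (-0.78).

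Of 25 STAT5 targets and feedback inhibitors, 6 fell and 0 rose (median -0.32), and 3 were called lower without replicate 2 or without replicate 3. Socs3 stood at 63.7, 64.5 and 84.4 RPKM at 90 min and at 38.2, 42.4 and 39.7 RPKM at 4 hr. These groups did not overlap, and the log2 fold change was -0.90 (standard error 0.18, adjusted p = 0.030 from the paired edgeR fit). The related inhibitor Socs1 overlapped between times, with 61.0, 26.8 and 22.6 RPKM at 90 min and 53.8, 37.4 and 30.5 RPKM at 4 hr (log2 fold change 0.15, adjusted p = 0.57 from the paired edgeR fit). Lif, Bcl6, Cdkn1a, Xbp1 and Ifng fell with log2 fold changes of -0.92, -0.91, -0.83, -0.76 and -1.51. Replicate 1 was the lowest in Ifng at both times, with 0.816 and 0.361 RPKM.

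The established IL-2 targets Bcl2, Myc, Lta, Gzmb and Cdk6 were not called in either direction. Bcl2, a survival gene, stood at 21.9, 32.6 and 25.2 RPKM at 90 min and at 24.9, 27.3 and 23.1 RPKM at 4 hr (log2 fold change -0.15, adjusted p = 0.62 from the paired edgeR fit). Myc, which drives growth, stood at 28.5, 54.7 and 38.4 RPKM and then at 25.1, 60.6 and 38.2 RPKM (log2 fold change -0.10, 95% confidence interval -0.46 to 0.26). Lta, encoding lymphotoxin α, gave 31.1, 17.0 and 13.2 RPKM and then 26.3, 18.8 and 29.8 RPKM, with replicates moving in different directions. The other 2 had log2 fold changes of 0.21 for Gzmb and -0.32 for Cdk6. The interval of each is that of 3 pairs, so smaller differences than these intervals were not detectable here.

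Ramp3 and Gls2, a glutaminase gene, were not called. Ramp3 stood at 239, 141 and 115 RPKM at 90 min and at 104, 152 and 134 RPKM at 4 hr (log2 fold change -0.38, adjusted p = 0.31 from the paired edgeR fit). Gls2 stood at 8.13, 4.91 and 4.76 RPKM and then at 6.07, 8.59 and 5.85 RPKM (log2 fold change 0.14). For both genes replicate 1 was the highest at 90 min and not at 4 hr. Txnrd1, a redox enzyme gene whose locus overlaps Eid3, went from 21.2, 18.01 and 17.5 RPKM to 14.7, 13.2 and 11.1 RPKM without overlap, and just missed the threshold (log2 fold change -0.64, adjusted p = 0.054 from the paired edgeR fit). Tnf, Gpsm2, Ppp1r3b and Fam19a3 (Tafa3 in RefSeq) had log2 fold changes of -0.44, -0.28, -0.65 and 0.42, none of them called.

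Of Treg identity and suppression genes, 4 were called lower without replicate 2. With all replicates 7 of 26 fell (26.92%, against 3.75% of all genes) and 0 rose (median -0.37). Foxp3 was not among them, with 150.4, 100.3 and 90.5 RPKM at 90 min and 113, 124 and 67.2 RPKM at 4 hr (log2 fold change -0.27, adjusted p = 0.35 from the paired edgeR fit). The suppressive cytokine gene Il10 stood at 15.5, 22.6 and 21.6 RPKM and then at 6.86, 10.6 and 8.08 RPKM. The groups did not overlap, and the log2 fold change was -1.32 (standard error 0.19, adjusted p = 0.021 from the paired edgeR fit). Ccr8, a chemokine receptor of tissue Tregs, stood at 64.4, 73.4 and 52.2 RPKM and then at 20.7, 38.1 and 14.8 RPKM, also without overlap, a log2 fold change of -1.56 (standard error 0.20). Areg, the inhibitory receptor genes Lag3 and Ctla4, Fgl2 and the costimulatory receptor gene Icos fell with log2 fold changes of -1.23, -1.04, -0.97, -1.02 and -0.74.

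Of 26 cytokine, chemokine and TNF family ligand genes, 8 fell and 0 rose (median -0.62), and 5 were called lower without replicate 3. Cd40lg, the ligand that licenses B cells and dendritic cells, stood at 8.40, 36.4 and 25.1 RPKM at 90 min and at 2.53, 14.3 and 3.36 RPKM at 4 hr. Replicate 1 was again lowest, and the log2 fold change was -2.08 (standard error 0.30, adjusted p = 0.021 from the paired edgeR fit). The death receptor ligand Fasl stood at 3.76, 10.7 and 9.50 RPKM and then at 0.889, 3.31 and 3.02 RPKM, which did not overlap (log2 fold change -1.89, standard error 0.20). Il1b and Tnfsf11 (RANKL) fell with log2 fold changes of -1.78 and -1.17, and the rest were Il10, Ifng, Lif and Areg. RNA of neutrophil and macrophage markers was present in these libraries, and which cells gave the Il1b RNA was not tested. Ltb was the most abundant member and was not called, at 285, 140.2 and 105 RPKM and then 219.7, 214 and 226 RPKM.

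Receptors and their signalling fell in part. Of 24 homing receptor genes, 4 fell, among them Cxcr5, which guides cells to B cell follicles (log2 fold change -1.10), and Cxcr4 (-0.87). Ccr7, the receptor for lymph node entry, stood at 415, 588 and 408 RPKM and then at 247, 502 and 389 RPKM and was not called (log2 fold change -0.44). Of 25 interleukin receptor chains other than those of IL-2, 7 fell, and 2 did without replicate 3. Among them Ifngr2, the shared chain gene Il6st and Il1r2 had log2 fold changes of -1.04, -1.03 and -0.74. Of 24 core genes of T cell receptor signalling, 3 fell, among them the phosphatase gene Ptpn22 (log2 fold change -0.92) and the ubiquitin ligase gene Cblb (-0.93). Of 20 costimulatory and TNF receptor genes, 4 fell, including the adhesion receptor gene Cd44 (log2 fold change -1.22). No member of these 4 lists rose. Without replicate 1 the calls numbered 7 for homing receptors and 6 for T cell receptor signalling, and without replicate 2 they were 2 for homing receptors and 2 for costimulatory receptors.

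Of 22 G protein and cAMP regulators, 5 fell and 0 rose (median -0.45). Crem, a repressor that binds cAMP response elements, stood at 196, 171 and 154 RPKM and then at 100.2, 97.4 and 85.3 RPKM, without overlap (log2 fold change -0.97, standard error 0.16, adjusted p = 0.025 from the paired edgeR fit). The others were Rgs1, Rgs16 (log2 fold change -1.16), the phosphodiesterase gene Pde4b (-0.85) and the prostaglandin receptor gene Ptger4 (-0.75).

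Genes of the TGF-β pathway, which induces and maintains Foxp3, had 9 of 21 members lower and 0 higher (median -0.80), and 4 lower without replicate 3. Itgb8, an integrin chain that activates TGF-β, stood at 22.4, 23.3 and 20.5 RPKM and then at 7.26, 17.8 and 2.52 RPKM. Its log2 fold change was -1.74 (standard error 0.41, adjusted p = 0.040 from the paired edgeR fit), and replicate 2 moved least. The transcription factor gene Smad3 fell with a log2 fold change of -1.10. The pathway inhibitors Smad7, Ski, Skil and Pmepa1 fell with log2 fold changes of -0.80, -0.83, -1.21 and -1.22. Of 25 transcription factors of effector and memory T cells, 6 fell and 0 rose, namely Ahr, Rora, Nfil3, Id2, Bcl6 and Maf, with log2 fold changes of -1.18, -1.06, -1.01, -0.92, -0.91 and -0.86, and 3 were called lower without replicate 3.

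The Notch list split. Hey1 (NM_010423, chromosome 3 from 8663359 to 8667038), a transcriptional repressor that is a classic Notch target, stood at 5.07, 5.61 and 7.10 RPKM at 90 min and at 0.977, 1.27 and 1.05 RPKM at 4 hr. The groups were far apart, and the log2 fold change was -2.52 (standard error 0.24, adjusted p = 0.0066 from the paired edgeR fit and 0.20 from the planned test). In unstimulated Tregs it stood at 8.74, 1.75 and 6.71 RPKM. The ubiquitin ligase genes Dtx1 and Dtx4 fell with log2 fold changes of -1.94 and -0.90. The receptor gene Notch3 rose by 2.39 on the log2 scale from 31, 20 and 4 reads to 46, 109 and 69 reads, under 0.3 RPKM throughout. In all, 3 of 23 fell and 1 rose (median -0.10), and 1 was called lower and 0 higher without replicate 3.

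In growth and metabolism lists the shares called lower lay on both sides of the 3.75% of all genes. They were 11.54% for nutrient carriers and 9.302% for ribosome biogenesis. Near that of all genes were 4.348% for glycolysis, 2.857% for tRNA synthetase genes and 2.778% for DNA replication genes. None of 30 translation initiation factors was called, with 1 at an unadjusted p-value under 0.05 in the planned test. Of 43 ribosome biogenesis genes, 4 fell and 0 rose, namely Utp20, Rrp12, Rcl1 and Gnl3, but 1 was called lower without replicate 2 and 0 without replicate 3. Of 36 DNA replication and mitosis genes, the replication clamp gene Pcna fell by 0.80, and Ccnb2 and Birc5, which act in mitosis, rose by 1.07 and 0.97 on the log2 scale. Of 26 nutrient carriers, 3 fell, the lactate carrier gene Slc16a1 (log2 fold change -1.14) and the amino acid carrier genes Slc7a5 (-1.19) and Slc38a2 (-0.95). Of 23 glycolysis genes, Pfkp alone fell in the paired fit (log2 fold change -0.88). Among 35 tRNA synthetase and amino acid stress genes, Eprs fell by 1.41, while Cars and Mars (Mars1 in RefSeq, overlapping Ddit3) rose by 0.84 and 0.65. Without replicate 3, 1 nutrient carrier was called lower, and no tRNA synthetase or DNA replication gene was called higher.

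Cholesterol and fatty acid synthesis genes went both ways, with 3 of 33 lower and 1 higher, and 10 lower without replicate 1 and 0 higher without replicate 3. Fdps, which makes farnesyl diphosphate, stood at 11.99, 10.4 and 9.49 RPKM and then at 19.6, 19.98 and 21.7 RPKM, and its times did not overlap (log2 fold change 0.86, standard error 0.17, adjusted p = 0.030 from the paired edgeR fit). Groups not overlapping in this direction made up 12.8% of all genes. Cyp51, a later step of the same pathway, stood at 11.2, 26.4 and 23.9 RPKM and then at 8.45, 9.999 and 8.51 RPKM (log2 fold change -1.20, standard error 0.26). The cholesterol exporter gene Abca1 and the mevalonate kinase gene Mvk fell with log2 fold changes of -1.33 and -0.95.

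Another 6 lists held few called members, with 5.714% to 13.33% called lower against 3.75% of all genes. Outside these 6, 1 of 24 thioredoxin and glutathione redox genes fell (4.167%) and 0 rose. Of 32 chaperone and unfolded protein response genes, 3 fell, Dnajb9 (log2 fold change -1.09), Dnajb4 (-0.95) and Hspa5, the chaperone BiP of the endoplasmic reticulum (-0.88). Ifih1 and Gbp6 fell among 35 interferon-stimulated genes, with log2 fold changes of -1.11 and -0.76. Pmaip1, a death-promoting member of the BCL2 family, fell by 1.22 and was the 1 of 16 members called. Of 26 G1 cyclins, kinases and inhibitors, Ccne2, Cdkn1a and Mxi1 fell, with log2 fold changes of -1.32, -0.83 and -0.82. Dtx1 and Cxcr4 were the 2 of 24 quiescence and homing genes that fell, and Ifng and Fasl the 2 of 15 cytotoxic genes. No member of these 6 lists rose. Without replicate 1, 7 interferon-stimulated genes and 5 chaperone genes were called lower, and without replicate 3, 1 of each of the interferon, G1, quiescence and cytotoxic lists.

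Few of the genes that rose belonged to the lists. Lama5 (NM_001081171, chromosome 2 from 180176373 to 180225904), a laminin chain of basement membranes, stood at 1.51, 1.02 and 1.47 RPKM at 90 min and at 3.39, 4.47 and 6.23 RPKM at 4 hr. The groups did not overlap, and unstimulated Tregs had 0.240, 0.475 and 0.322 RPKM. The log2 fold change was 1.71 (standard error 0.20, adjusted p = 0.011 from the paired edgeR fit and 0.20 from the planned test). Ecm1 (NM_007899, chromosome 3 from 95734147 to 95739876), a secreted matrix protein, went from 99.7, 104 and 118 RPKM to 189.6, 215 and 292 RPKM, also without overlap. Its log2 fold change was 1.0 (standard error 0.17, adjusted p = 0.025 from the paired edgeR fit). Rhcg, an ammonium channel, had 2, 0 and 1 reads at 90 min and 17, 28 and 14 reads at 4 hr, all under 0.3 RPKM. These genes come from a list of 18 matrix and surface genes taken from earlier results of these data, which is no independent evidence of their direction. In it 3 of 16 tested rose and 4 fell, namely Dscam, Col16a1, Cpq and Susd2, with log2 fold changes of -2.49, -2.24, -2.03 and -1.46, and without replicate 3 it had 2 higher and 1 lower.

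The largest rises by the rule for named genes were those of genes with little RNA or with replicates far apart. Frmd5, a FERM domain gene, stood at 0.773, 0.430 and 0.144 RPKM at 90 min and at 3.61, 1.81 and 0.743 RPKM at 4 hr (log2 fold change 2.13, standard error 0.24, adjusted p = 0.011 from the paired edgeR fit). Each replicate moved by a like factor, although the groups overlapped by a little. Dand5, Rsph9 and Fam64a (Pimreg in RefSeq), which overlaps Aipl1, rose by 2.49, 2.26 and 2.03 without overlap. Ager, a pattern recognition receptor, went from 1.45, 1.74 and 1.49 RPKM to 2.74, 7.64 and 11.6 RPKM, with 0.814, 7.62 and 5.05 RPKM in unstimulated Tregs, a log2 fold change of 1.93. Tg rose by 1.97, but its locus overlaps that of Sla, and Rsph9 overlaps Mrps18a, so part of these reads is uncertain.

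Another set was high in replicate 1 alone. Sox7, a transcription factor of endothelial cells, stood at 5.36, 0.0936 and 0.140 RPKM at 90 min and at 14.6, 0.197 and 1.84 RPKM at 4 hr, and unstimulated replicate 1 had 6.39 RPKM against under 0.1 RPKM in the others. For Sox7 the log2 fold change was 2.02 (standard error 0.43, adjusted p = 0.034 from the paired edgeR fit). Unc93a, Scn2b and Dlgap1 had the same order, with log2 fold changes of 2.21, 1.99 and 1.96. Without replicate 1 at 4 hr, in the planned design, Sox7 and Unc93a turned to -0.78 and -0.99, and with the longest transcript Dlgap1 turned to -0.03, or -0.01 in the paired fit. Itgb6 stood at 17.2, 2.4 and 2.62 RPKM and then at 69.2, 6.77 and 16.1 RPKM. Cyp1a1, a target of the aryl hydrocarbon receptor, had 12, 6 and 1 reads at 90 min and 405, 26 and 2 reads at 4 hr, so its log2 fold change of 4.18 rested on replicates 1 and 2.

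**Figure D4:**
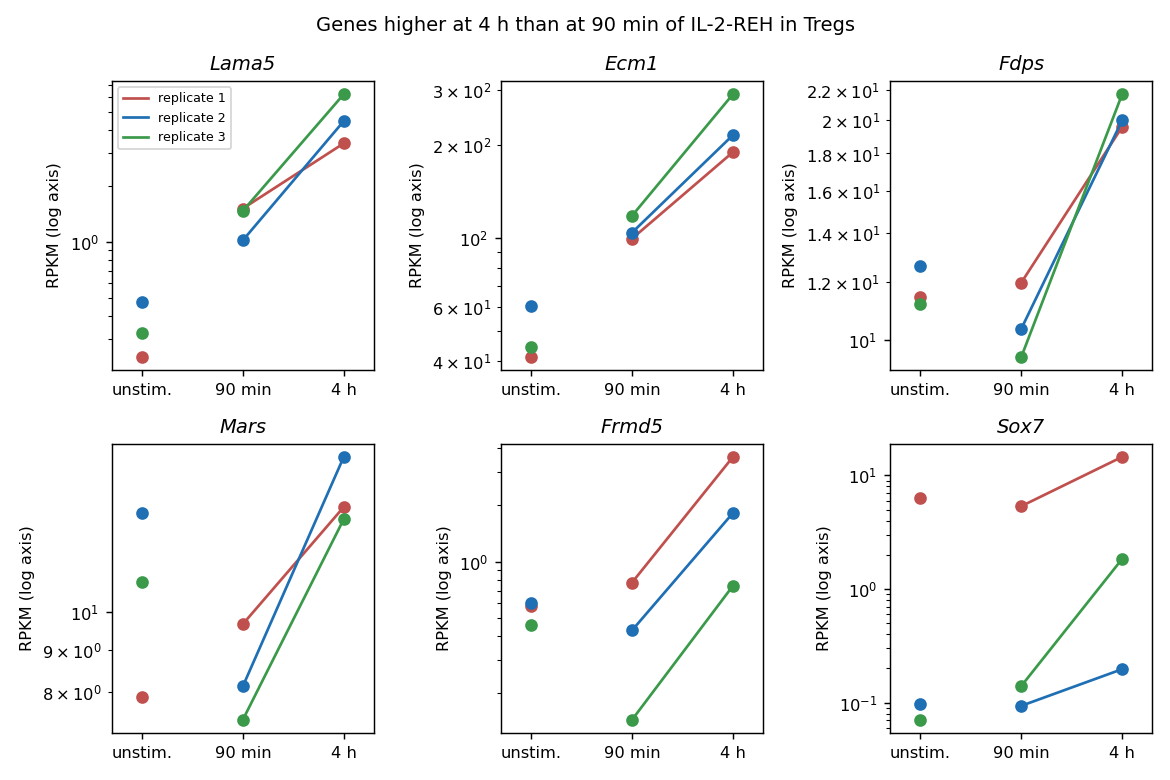
RPKM (log y axis) of Lama5, Ecm1, Fdps, Mars, Frmd5 and Sox7 in each Treg library, unstimulated and at 90 min and 4 hr of IL-2-REH (x axis), coloured by replicate, with lines joining the times of IL-2-REH. All lines go up, the groups do not overlap for Lama5, Ecm1, Fdps and Mars, and Sox7 is high in replicate 1 at all times.

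The rest of the 12 lowest named genes included Per2, a clock gene, which fell by 2.28 from 0.698, 2.26 and 2.247 RPKM to 0.196, 0.482 and 0.413 RPKM. Gjb2, a gap junction gene, fell by 2.35 from 6.15, 6.97 and 3.88 RPKM to 0.868, 2.09 and 0.817 RPKM. Ell2, an elongation factor of RNA polymerase II, fell by 1.99 from 19.1, 36.2 and 36.5 RPKM to 8.01, 11 and 5.50 RPKM. None of these 3 overlapped between times. Utp14b fell by 1.96, and its locus lies in that of Acsl3.

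Another 3 of the 12 are known from macrophages or red blood cells. Vcam1 and Cd5l, expressed by tissue macrophages, and Car1, the erythroid carbonic anhydrase, fell with log2 fold changes of -2.36, -2.04 and -1.97. Of 12 macrophage and monocyte markers measured, 3 fell and 0 rose, with log2 fold changes of -3.08 for Mrc1, -2.36 for Vcam1 and -1.91 for C1qc, and 6 were called lower without replicate 1 and 1 without replicate 3. Their summed level was 14.4, 53.5 and 36.8 RPKM at 90 min and 11.6, 37.0 and 32.5 RPKM at 4 hr, lower at 4 hr in each replicate. Lyz2, the most abundant of them, stood at 9.75, 24.1 and 23.6 RPKM and then 7.68, 24.0 and 22.3 RPKM. None of the 12 was at 0 in all 6 libraries. The part of these cells in the genes that fell was not tested. Of B cell, dendritic cell, neutrophil, erythroid and CD8 or NK markers, none was called, although neutrophil RNA stood high in replicate 3 at both times.

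The time change was also measured with IL-2 itself, in libraries that the IL-2-REH comparison does not share, though same-numbered libraries go together. Between the IL-2 libraries at 90 min and 4 hr the deviations correlated with r = 0.498, 0.540 and 0.178 for numbers 1 to 3, weakest for number 3. The planned test of IL-2 at 4 hr against 90 min called none of 14992 genes, with 2556 at an unadjusted p-value under 0.05, and DESeq2 called 374. In a fit of the 4 stimulated groups with the replicate block, 825 of 14719 genes (5.61%) were called lower and 603 (4.1%) higher with IL-2, and 861 lower and 578 higher with IL-2-REH. The IL-2 libraries alone with the block, the design of the paired fit, gave 5 calls. All 856 genes called with IL-2-REH moved in the same direction with IL-2, against 80.8% of all genes tested, and 626 were called. The median absolute log2 change of these 856 genes was 1.06 with IL-2-REH, by which they were chosen, and 0.98 with IL-2. Of the 32 immediate early genes, 20 fell with IL-2 in the fit of the 4 groups. Nr4a3 went from 122, 405 and 321 RPKM to 23.7, 147 and 63.9 RPKM with IL-2 (log2 fold change -2.14, adjusted p = 0.0027 from the edgeR fit of the 4 groups). Hey1 went from 3.77, 3.61 and 4.26 RPKM to 0.557, 0.649 and 0.988 RPKM (log2 fold change -2.51).

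The test of the difference between the time changes called none of 14992 genes (0%), with 47 at an unadjusted p-value under 0.05, and DESeq2 and limma called 0 as well. With the block over the 4 stimulated groups, 180 of 14719 had an unadjusted p-value under 0.05 and 0 an adjusted one. The unadjusted shares, 0.3135% and 1.223%, are below the share of 0.05 that evenly spread p-values would give. Both tests could thus call little, and 0 calls do not show that the time changes were equal. The difference for Nr4a3, IL-2-REH minus IL-2, was -0.48 on the log2 scale (95% confidence interval -1.19 to 0.24) and for Klf4 -0.03 (-0.82 to 0.76), in that fit. For Lama5 the difference was -0.71 (-1.46 to 0.03). Its IL-2 values were 2.60, 1.57 and 2.19 RPKM and then 6.52, 12.9 and 16.5 RPKM. The lowest unadjusted p-values of the planned test were those of Dst, 4930415F15Rik, Ptpn13, Tnfrsf8 and Coch, all with an adjusted p of 1.0. Dst, a cytoskeletal linker gene, stood at 4.90, 5.12 and 5.53 RPKM and then 6.00, 7.05 and 4.95 RPKM with IL-2-REH, and at 5.44, 4.68 and 5.75 RPKM and then 11.8, 10.8 and 16.9 RPKM with IL-2. Ptpn13, a phosphatase gene, fell with IL-2-REH from 11.5, 10.4 and 11.3 RPKM to 6.00, 7.07 and 4.23 RPKM, and stood at 15.01, 11.4 and 11.6 RPKM and then at 10.8, 12.1 and 11.1 RPKM with IL-2. The difference for Ptpn13 was -0.87 in the planned fit (95% confidence interval -1.43 to -0.31).

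**Figure D5:**
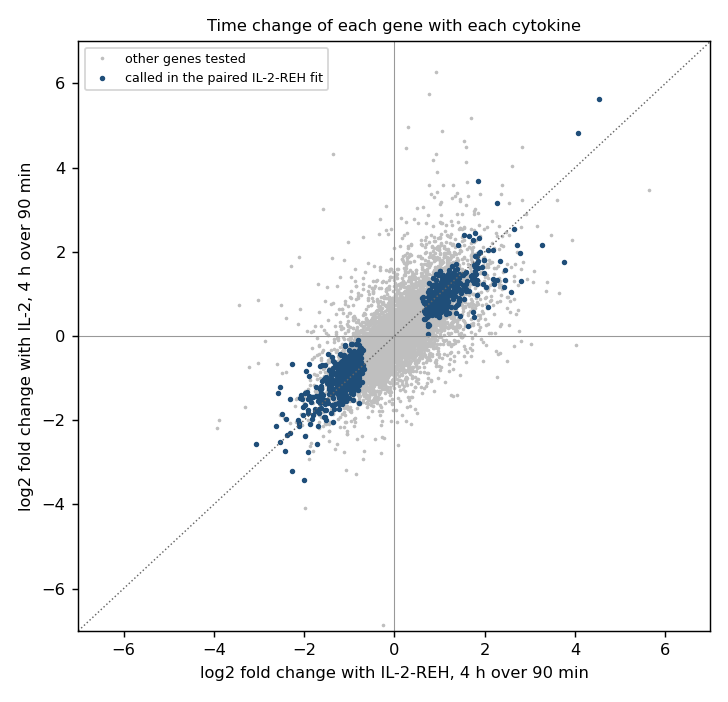
Log2 fold change between 4 hr and 90 min with IL-2-REH (x axis) and with IL-2 (y axis) for each gene, from the fit of the 4 stimulated Treg groups with the replicate block, with the 856 genes called in the paired IL-2-REH fit in blue and a dotted line of equal change. The blue points lie in the lower left and upper right of the plot, since all 856 moved in the same direction with IL-2.

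Against unstimulated cells, the planned test called 14 genes (0.0934%) at 90 min, all of them higher, and 47 genes (0.314%) at 4 hr, 24 higher and 23 lower. These comparisons share the unstimulated libraries, of which replicate 1 stood apart. Lama5 had a log2 fold change of 2.12 at 90 min and 3.81 at 4 hr, and Ecm1 of 1.31 and 2.28.

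In CD8+ T cells, 1 library per time allowed no test. These cells also had no sample kept without cytokine for 90 min or 4 hr. Time with IL-2-REH and time in culture thus cannot be told apart there either. Of the 414 genes that fell in Tregs and had a mean of at least 1 RPKM over the CD8+ libraries, 364 (87.9%) had a log2 ratio of RPKM + 1 below 0 between 4 hr and 90 min of IL-2-REH, against 42.0% of 9924 genes of that level. Their median log2 ratio was -0.36 against 0.06. For the 249 genes that rose, the median was 0.62, and 4 (1.61%) were below 0. Nr4a3 stood at 16.1 RPKM at 90 min and 3.28 RPKM at 4 hr in CD8+ cells, a log2 ratio of -1.99, and Junb at 47.9 and 26.4 RPKM, a log2 ratio of -0.84. Ecm1 stood at 1.75 and 3.15 RPKM and Lama5 at 0.0804 and 0.0873 RPKM there. Ramp3 had a log2 ratio of -2.66 in CD8+ cells.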

How the data were processed

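Poly(A) RNA was sequenced with single-end reads of sorted Tregs and CD8+ T cells. The submitters' processing notes name TopHat2 2.1.1, Bowtie2 2.2.6, SAMtools 0.1.8, bedtools 2.25.0, edgeR and mm10. The authors deposited read counts over exons and RPKM for each transcript, and whether counting used strand is not given in the sources used here. Here 1 transcript per symbol, the one with the most reads over all files, was kept. Counts were fitted with edgeR 4.0.16 (filterByExpr, TMM, quasi-likelihood F test, Benjamini-Hochberg adjustment, threshold 0.05) in R 4.3.3 over the 15 Treg libraries. The replicate block, DESeq2 1.42.0, and limma 3.58.1 on log2(RPKM + 1) were alternatives. Scripts were tested on simulated data.

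Same-numbered libraries were taken as pairs because their deviations correlated above 0.1 in all 3 pairs (0.639, 0.590 and 0.390). Since the planned fit called no gene, the rule for named genes was applied to the paired fit. It took the 12 highest and 12 lowest log2 fold changes with the same sign in all 3 pairs and a mean of at least 1 RPKM at either time, up to 5 called genes per list, genes the study names, and the 5 lowest p-values of the difference between cytokines. Values of other called list members were named after they were seen. The genes and lists were chosen with earlier results of these data known. RefSeq tables of GRCm38.p6 gave coordinates and promoters. Intervals are at 95%. Results of some list members are not reported here.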

Additional observations from a re-analysis of the deposited data

Results flagged for a closer look

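A pair of genes of low level had opposite signs with the 2 cytokines in all 3 pairs on the scale of TMM-scaled counts. For Coch in replicate 2 with IL-2-REH that log2 ratio was only -0.11, from 23 and 21 reads, and the RPKM went the other way. 4930415F15Rik stood at 0.0858, 0.0529 and 0.0391 RPKM at 90 min and 0.244, 0.107 and 0.175 RPKM at 4 hr with IL-2-REH, and at 0.288, 0.110 and 0.166 RPKM and then 0.0562, 0.0150 and 0 RPKM with IL-2. Coch stood at 0.301, 0.114 and 0.121 RPKM and then 0.0427, 0.126 and 0.0308 RPKM with IL-2-REH, and at 0.220, 0.124 and 0.209 RPKM and then 0.355, 0.567 and 0.406 RPKM with IL-2. The difference between the time changes was 4.30 for 4930415F15Rik (95% confidence interval 1.60 to 7.01) and -2.71 for Coch (-4.59 to -0.82) on the log2 scale, and neither passed the adjusted threshold in edgeR.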

How the results depend on the processing

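The count of genes called between 4 hr and 90 min of IL-2-REH, 0 as planned, depended on the processing. It was 6 with the replicate block over all Treg libraries, 856 with the block and the groups compared alone, 1439 with the block and the 4 stimulated groups, 251 with DESeq2, and 0 to 574 when 1 replicate number was left out. Without the unstimulated library of replicate 1 it was 71, and 1773 with the block. In the paired fit, DESeq2 gave 2080, limma 1789, RLE factors 797, the longest transcript 861 and a mean RPKM of at least 1 849, and leaving out replicate 1, 2 or 3 gave 1755, 1082 and 301. With IL-2 the count was 58 with the block over all Treg libraries, 5 with the block and the groups compared alone, 1428 with the block and the 4 stimulated groups, 374 with DESeq2, 4 with RLE factors, 3 without a filter, 9 at a mean RPKM of at least 1, 3 with limma and 0 to 625 when 1 replicate number was left out. The cause was not tested. The difference between cytokines had 0 calls under each alternative run. Of 3406 alternative values of 119 named genes, 4 reversed: Dlgap1 with the longest transcript (-0.03, and -0.01 in the paired fit), and Sox7 (-0.78) and Unc93a (-0.99) without replicate 1 at 4 hr, while without replicate 1 at 90 min they were 5.35 and 5.90. The settings without the unstimulated library of replicate 1, those of the 4 stimulated groups, the variants of the paired fit and the paired IL-2 fit were chosen after seeing the data. Depth limits the genes under 1 RPKM.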
